A study of Mus musculus with 9 samples.

Results

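The 3 libraries described here came from TC2R mouse prostate adenocarcinoma cells that received an empty expression plasmid, and they were chosen by their labels as the plasmid control columns of a table of 9 libraries. TC2R (TRAMPC2-Ras) was derived from the TRAMP-C2 line, on a C57/BL6 background. It was made by lentiviral transduction of activated H-ras (G12V) and of the mouse androgen receptor, each at a multiplicity of infection of 1. Every library came from cells of this line, given both transgenes. Each well received 1.5 µg of plasmid in 2 µL of Lipofectamine for 6 h in OptiMEM and was then returned to medium with 10% serum, and cells were harvested at 24 h from the beginning of the transfection. The other 6 libraries, from cells given plasmids encoding IL-27, entered only the scaling factors, and no group was compared. The levels are therefore those of lipid-transfected cells of a single engineered line, with no untransfected or parental library beside them.

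TRAMP tumours are prostate cancers of mice in which a viral oncoprotein is driven by the prostate-restricted probasin promoter, and TRAMP-C2 is a culture line grown from such a tumour. Ras proteins are membrane switches that pass growth signals to the Raf, MEK and ERK kinases, to PI3K and AKT, and to RalGDS. Luminal cells of the prostate are marked by keratins 8 and 18, basal cells by Trp63 and keratins 5 and 14, and mesenchymal cells by vimentin, N-cadherin and the Snail, Twist and Zeb factors.

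Library totals were 35078027, 29817242 and 27609884 counts in replicates 1, 2 and 3. CPM, the count scaled to a common library size, gives a gene's share of a library. TPM, computed here by dividing each count by the length of the gene's longest annotated transcript, are used wherever different genes are compared, since a long transcript yields more reads. Orders between genes are those with this length unless other lengths are named. The table held 12125 genes, of which 11367 averaged at least 1 CPM, 9014 at least 10, 2577 at least 100 and 67 at least 1000. A length was found for 12061 genes (99.5%), their median level was 27.8 TPM, and 72.0% reached 10 TPM, 17.1% reached 100 TPM and 115 genes reached 1000 TPM. Log2 CPM correlated across genes with r from 0.997 to 0.998 between libraries, which describes genes of these libraries and not independent replicates. The labels do not say whether the replicates were separate cultures, so the SD given with each mean (n = 3) may be technical in part. A gene without a row was not measured here, and its level cannot be read as 0, because the table appears to have been filtered on low values.

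Short stretches around the letters of a TATA box (TATAAA) or an E-box (CACGTG) are shown for the promoters of 5 of the 30 genes with the highest CPM. They are a selection, and other matches among these 30 genes are not printed. They are 30 bases of the RefSeq promoter windows, GRCm38.p6, read 5′ to 3′ on the strand of the gene, with the motif in capitals.
Vim, chr2:13574267-13574296, plus strand: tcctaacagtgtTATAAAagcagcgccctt
Eef2, chr10:81176576-81176605, plus strand: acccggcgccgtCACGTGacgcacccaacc
Eif5a, chr11:69921443-69921472, minus strand: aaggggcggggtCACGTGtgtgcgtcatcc
Tubb5, chr17:35838359-35838388, minus strand: atggccgcctggCACGTGatcggttggtct
Ldha, chr7:46845744-46845773, plus strand: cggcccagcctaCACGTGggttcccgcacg
The Vim match began 32 bases before the annotated start, and the matches shown for Eef2 and Ldha began 43 and 48 bases before theirs. TATAAA matches not printed lay elsewhere. They began 15 bases before the start in Eef2, 137 bases before it in Rps2, and at base 18 after it in both Rplp0 and Rps2. Windows of 250 bases before to 50 after a start, searched on both strands, were available for 9262 of the 12125 genes and for 78 of the 100 genes with the highest CPM. A gene with several annotated starts has several windows, and it was counted if any of them held the motif. The number of windows per gene was not taken into account. CACGTG was found for 12.0% of all genes with a window and for 26.9% of the 78, and TATAAA for 8.44% and 16.7%. The other 2 motifs searched gave 43.5% and 52.6% for CCAAT, and 6.22% and 7.69% for TGANTCA. N stood for any base, so this pattern covers the site of AP-1 factors but is wider than it. Of the 27 ERK output genes described further on, 17 had a window. TATAAA was found in 4 of the 17 (23.5%), CCAAT in 8 (47.1%), and TGANTCA and CACGTG in 0. No motif contains another, the stretches printed were chosen after the shares were seen, and a match is a run of letters in a window, not a shown binding site.

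Ranked by CPM, which is not corrected for length, the highest messages were those of protein synthesis, protein folding and sugar breakdown. The highest row was Rn45s, the precursor of ribosomal RNA, at 14916, 12041 and 14338 CPM, equal to 1.37% of counts, and replicate 2 was the lowest. Because Rn45s is not a message and has no annotated length, it has no TPM. Eef1a1, which carries aminoacyl-tRNA to the ribosome, stood at 12500, 12008 and 12592 CPM, and per length it was the highest gene of all at 19040 ± 320 TPM. Eef2, the factor that moves the ribosome along the message, reached 5595 ± 97.6 CPM. The chaperone Hsp90ab1 reached 5447 ± 178 CPM, the poly(A)-binding protein Pabpc1 4160 ± 193 CPM, and the glycolytic enzyme Pkm 3723 ± 152 CPM.

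**Figure D1:**
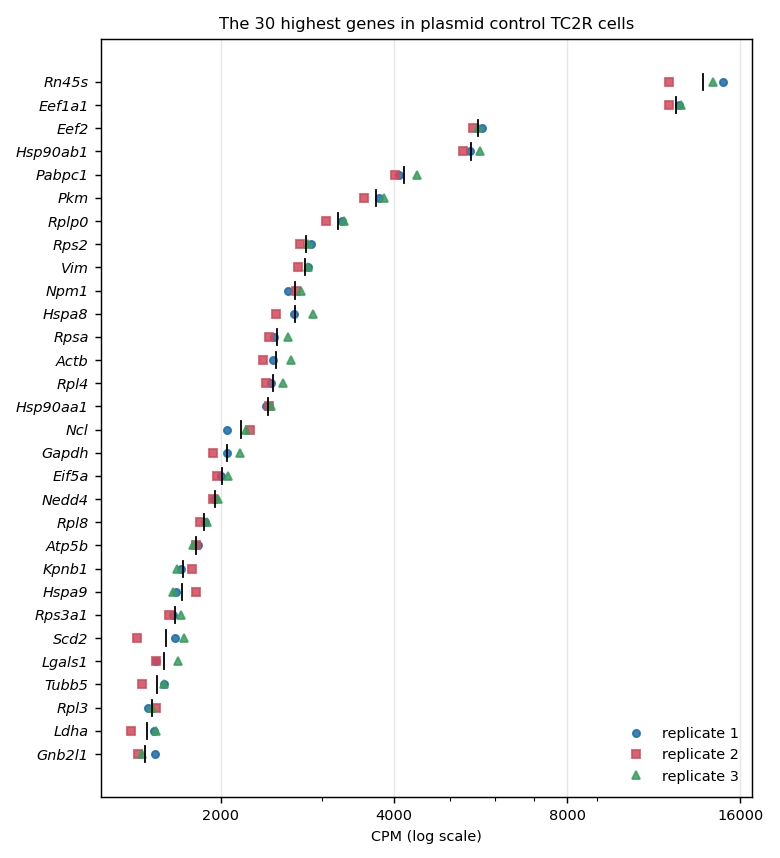
Mean CPM (log axis) of the 30 highest genes, with 1 point per plasmid control library and a short bar at the mean. Rn45s and Eef1a1 stand apart at 13765 and 12366 CPM, and Rn45s, Scd2 and Ldha are among the genes lowest in replicate 2.

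The 100 highest genes held 17.1%, 16.6% and 17.4% of the counts in replicates 1, 2 and 3, a mean of 17.0% ± 0.365, and the gene at rank 100 stood at 877 CPM. Among them were 26 ribosomal protein genes, 10 members of the chaperone list, 8 of the translation factor list, and 5 each of the glycolysis and cytoskeleton lists. All 80 ribosomal protein genes with a row took 5.90% ± 0.181 of counts, with Rplp0 at 3196 ± 123 CPM and Rps2 at 2817 ± 62.3 CPM. These genes have many near-identical pseudogenes, so their counts are uncertain. In all, 12 of the 13 listed translation factors had a row, each at 100 TPM or more, and the lowest was the cap-binding protein Eif4e at 173 ± 4.78 TPM. The rule also named genes outside these classes. Vim, the intermediate filament of mesenchymal cells, was ninth at 2835, 2729 and 2839 CPM. Nedd4, a ubiquitin ligase, was at 1947, 1943 and 1977 CPM, and Scd2, a fatty acid desaturase, at 1669, 1430 and 1724 CPM, lowest in replicate 2. The remaining non-ribosomal names among the 30 were the nucleolar proteins Npm1 (2693 ± 71.2 CPM) and Ncl (2171 ± 102), the chaperones Hspa8 (2691 ± 196), Hsp90aa1 (2421 ± 23.3) and Hspa9 (1714 ± 87.3), Actb (2498 ± 140), Gapdh (2049 ± 111), Eif5a (2010 ± 43.4), Atp5b of the mitochondrial ATP synthase (1810 ± 16), the nuclear import receptor Kpnb1 (1721 ± 53.9), Lgals1 (1593 ± 82.5), Tubb5 (1551 ± 77.5), Ldha (1490 ± 81.0) and the ribosome-bound scaffold Gnb2l1 (1477 ± 51.9).

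Genes of glycolysis were high as a group. All 23 listed genes had a row, 13 reached 100 TPM, and their median was 149 TPM against 27.8 TPM over all genes. Pkm led at 4282, 4078 and 4323 TPM, followed by Ldha, which makes lactate, at 2267 ± 104 TPM, Aldoa at 2254 ± 63.4 TPM, Gapdh at 1721 ± 74.8 TPM and Pgk1 at 1415 ± 70.4 TPM. The glucose importer Slc2a1 stood at 149 ± 12.5 TPM. The lowest was Aldoc at 1.88 ± 0.383 TPM. Eno1 was listed at 4.26 TPM, but its near-identical copy Eno1b has a row of its own and reads may have been split or dropped between them, so its level is uncertain. Iron storage and redox genes were also present throughout, with 16 of 21 at 100 TPM or more, led by the ferritins Ftl1 at 2626 ± 49.1 TPM and Fth1 at 1727 ± 71.6 TPM, and with Nqo1 lowest at 10.2 ± 0.795 TPM. Of 18 chaperones 17 had a row, 14 of them at 100 TPM or more, and the lowest was the small heat shock protein Hspb1 at 4.89 ± 0.893 TPM.

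The labelled cell type was checked against its markers. In these bulk libraries fewer cells of a type and less RNA per cell cannot be told apart. Of 30 luminal and androgen-regulated genes 17 had a row and 12 of these reached 10 TPM, against 72.0% of all genes, while Krt18, Hoxb13, Pbsn, Tmprss2, Folh1, Psca and Foxa1 were among the 13 without a row. The highest of those present are also active in other tissues. Sgk1, a kinase induced by steroid hormones, stood at 313, 280 and 304 TPM. Ndrg1 stood at 240 ± 12.5 TPM, the metalloreductase Steap1 at 199, 209 and 187 TPM, Steap2 at 75.4 ± 4.48 TPM and the glucocorticoid-induced Tsc22d3 at 70.9 ± 3.76 TPM. The lowest was Klf15 at 0.860 ± 0.247 TPM.

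Among steroid receptors the glucocorticoid receptor Nr3c1 was highest, at 49.3, 58.8 and 49.3 TPM. Esr1 stood at 4.33 TPM and the mineralocorticoid receptor Nr3c2 at 0.451 TPM. Of 42 listed nuclear receptors and their partners 34 had a row, with the chaperones Hsp90ab1 (5970 ± 130 TPM) and Fkbp4 (399 ± 0.231 TPM), which hold steroid receptors ready for ligand, ahead of Rxrb (70.9 ± 3.38 TPM), Nr2f6 (63.6 ± 5.45 TPM) and the corepressor Ncor1 (60.6 ± 0.354 TPM). Rora was lowest at 0.370 ± 0.0903 TPM.

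Of 17 basal genes 9 had a row, 5 of them at 10 TPM or more and 3 at 100 TPM or more, and Trp63, Krt5, Krt14, Krt15 and Krt17 had none. The 3 highest are shared with mesenchymal and other cells: the hyaluronan receptor Cd44 at 340 ± 6.84 TPM, the caveolar coat protein Cav1 at 178 ± 0.313 TPM and the laminin-binding integrin Itga6 at 153 ± 4.83 TPM. Dst followed at 25.7 ± 1.75 TPM, and the Notch ligand Jag2 was lowest at 0.333 ± 0.0838 TPM. Of 25 neuroendocrine and neural genes 10 had a row, and Chga, Chgb, Syp and Insm1 were among the 15 without one. Those present were led by the intermediate filament Nes (155 ± 2.83 TPM), the histone methyltransferase Ezh2 (110 ± 4.64 TPM) and Tubb3 (57.0 ± 3.27 TPM), and included Rest, a repressor of neural genes, at 21.7 ± 1.11 TPM and Uchl1 at 21.2 ± 1.97 TPM. Sox11 was lowest at 0.403 ± 0.0919 TPM.

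Genes of epithelial junctions were low or without a row. Of 24 listed, 11 had a row, 0 reached 100 TPM and 8 were under 10 TPM, with a median of 5.12 TPM against 27.8 TPM over all genes. Epcam, Cldn3, Cldn4, Cldn7, Ocln, Esrp1 and Dsp had no row among the genes analysed here. Cdh1, which encodes E-cadherin, had 18, 21 and 19 reads, or 0.321, 0.442 and 0.427 TPM, near the bottom of the table in every library. The highest were the junction scaffold Tjp1 (54.0 ± 2.82 TPM), plakoglobin Jup (28.6 ± 0.722 TPM), P-cadherin Cdh3 (23 ± 2.00 TPM), Krt19 (8.27 ± 1.17 TPM) and Muc1 (6.09 ± 0.0945 TPM).

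Only 5 of 17 listed keratins, the filaments of epithelial cells, had a row. They were Krt80 at 36.2 ± 1.94 TPM, Krt13 at 13.8 ± 1.33 TPM, Krt19 at 8.27 ± 1.17 TPM, Krt10 at 4.86 ± 0.183 TPM and Krt8 at 3.11 ± 0.668 TPM. The 3 values of each keratin lay above the 3 of the next, and this order held with the median and with the principal transcript length. Krt8, the luminal keratin, had 88, 72 and 46 reads, and its usual partner Krt18 had no row.

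Mesenchymal genes were higher. Of 24 listed, 22 had a row, 20 reached 10 TPM and 8 reached 100 TPM, with a median of 47.9 TPM. Their summed level ran from 8079 to 8564 TPM over the libraries, against 129 to 139 TPM for the epithelial list. These sums cover 22 and 11 genes, and of the mesenchymal mean of 8347 TPM S100a6 gave 2971 TPM and Vim 2644 TPM. The list medians, 47.9 and 5.12 TPM, differed less in proportion. The calcium-binding proteins S100a6 (3014, 2796 and 3103 TPM) and S100a4 (926, 888 and 1070 TPM) and vimentin (2644 TPM on average) were highest. The receptor kinase Axl followed at 503 ± 11.1 TPM and the matrix protein Sparc at 428 ± 10.0 TPM.

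Every transcription factor of the epithelial-to-mesenchymal set that was listed had a row. Snai2 stood at 150, 191 and 150 TPM, high in replicate 2, and Prrx1 at 128 TPM, an order that turned with either other transcript length. Twist2 (61.4 TPM), Twist1 (56.1 TPM), Zeb2 (39.8 TPM), Zeb1 (36.6 TPM) and Snai1 (34.1 TPM) followed, and the libraries of Zeb2 and Zeb1 overlapped. With the median transcript length Zeb2 was the highest of the set at 80.8 TPM, so the order of these factors rests on the transcript taken. The lowest mesenchymal gene was Cdh11 at 1.31 ± 0.118 TPM.

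**Figure D2:**
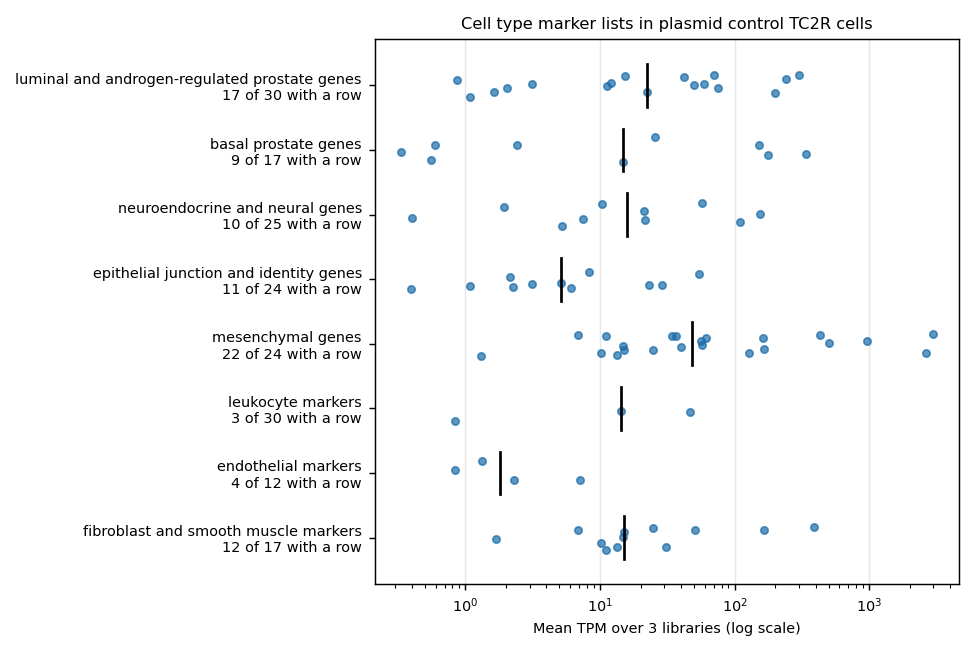
Mean TPM over the 3 plasmid control libraries (log axis) of marker genes by list, with 1 point per gene, a bar at the list's median and no error shown. Mesenchymal genes reach from 1.31 to 2971 TPM, while the measured epithelial genes lie between 0.397 and 54.0 TPM and genes without a row are not drawn.

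Within the cadherin family Cdh2 of the mesenchymal list was highest, but Cdh11 of that list lay below Cdh3 of the epithelial list. N-cadherin, Cdh2, stood at 58.5, 55.0 and 59.6 TPM, P-cadherin Cdh3 at 22.3, 25.3 and 21.5 TPM, and Cdh1 under 1 TPM, so Cdh2 exceeded the others in every library and with every transcript length. The remaining cadherins were Cdh13 (7.96 TPM), Cdh17 (7.57 TPM), Cdh24 (2.26 TPM), Cdh11 (1.31 TPM) and Cdh5 (0.831 TPM). The catenins that tie cadherins to actin were high, with beta-catenin Ctnnb1 at 435 ± 7.17 TPM, Ctnna1 at 287 ± 7.08 TPM and Ctnnd1 at 88.3 ± 1.51 TPM.

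Some fibroblast and smooth muscle genes were high and others low. Of 17 listed, 12 had a row, led by podoplanin Pdpn at 389 ± 9.96 TPM, Col1a2 at 164 ± 2.19 TPM and Col1a1 at 50.5 ± 1.53 TPM. Col3a1 stood at 30.8 ± 2.84 TPM and the receptor Pdgfra at 25.0 ± 0.955 TPM. The contractile genes Acta2 and Tagln were at 11.1 and 10.1 TPM, Cnn1 was lowest at 1.68 ± 0.0341 TPM, and Myh11, Des, Lum and Fap had no row. The summed level of the list ran from 722 to 740 TPM over the libraries. Whether any of these reads came from other cells in the culture was not tested.

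Leukocyte markers were nearly all without a row: 27 of 30, among them Ptprc, the T cell genes Cd3d, Cd3e and Cd3g, the B cell genes Cd79a and Cd79b, and the myeloid genes Itgam, Adgre1 and Lyz2. The 3 with a row were the lipopolysaccharide co-receptor Cd14 at 48.3, 48.7 and 43.4 TPM, Cd68, a lysosomal protein, at 14.2 ± 0.964 TPM, and Csf1r, the receptor for Csf1, at 0.843 ± 0.132 TPM with 57, 44 and 33 reads. Of 12 endothelial markers 4 had a row and none of these 4 reached 10 TPM: Egfl7 at 7.15 ± 0.975 TPM, Kdr at 2.30 ± 0.462 TPM, Flt1 at 1.34 ± 0.0812 TPM and Cdh5 at 0.831 ± 0.159 TPM, with Pecam1 and Vwf among those without one.

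Part of a set of lineage regulators of the posterior body and the urogenital tract was measured. Of 26 listed, 15 had a row and 13 reached 10 TPM. The forkhead factor Foxf2 stood at 109 ± 3.48 TPM and Sox9 at 104 ± 5.55 TPM. Hoxb9 stood at 69.5, 79.6 and 64.4 TPM, Hoxd13 at 36.8 ± 0.828 TPM, Hoxa11 at 35.2 TPM and Hoxa9 at 19.6 TPM, while Hoxb13, a member active in the prostate, had no row. The zinc finger factor Gata2 stood at 42.0 ± 1.91 TPM, and the kidney regulator Wt1 was lowest at 1.58 ± 0.141 TPM. Of 18 stem and progenitor genes 10 had a row: Cd44, Ly6e (200 ± 13.7 TPM), Nes, Sox9 and Klf5 (102 ± 5.48 TPM) were highest, the Sca-1 gene Ly6a stood at 80.4 ± 6.61 TPM and Itga2 was lowest at 0.704 ± 0.190 TPM. Prom1, Lgr5, Sox2, Pou5f1 and Nanog had no row.

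Genes of the Y chromosome were read in every library, and Xist and Tsix had no row. Ddx3y stood at 84.8, 97.3 and 86.8 TPM, Eif2s3y at 57.7, 59.5 and 53.5 TPM, Uty at 27.2 ± 0.401 TPM and Kdm5d at 16.2 ± 0.770 TPM. The order of Ddx3y and Eif2s3y turned with either other transcript length.

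The Hras row stood below the Nras row. Nras stood at 127, 133 and 125 TPM and Hras at 43.8, 42.1 and 44.4 TPM. The libraries of the pair did not overlap, and the order held with the median and the principal transcript length. Hras (chromosome 7, 141189105 to 141194005, mm10) had 1571, 1276 and 1263 reads. The labels do not give the species or extent of the H-ras insert, so reads from the transgene and the endogenous gene cannot be told apart. Whether the Hras row holds the reads of the insert is not known either, so its TPM is not a level of the transgene.

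Of the 15 listed Ras superfamily genes 14 had a row, each at 10 TPM or more, from Rap1b at 264 ± 4.67 TPM to Rap2a at 12.8 ± 0.219 TPM. The mTORC1 activator Rheb stood at 102 ± 8.28 TPM and Rap1a at 83.6 ± 1.78 TPM. Rras2 (73.9 TPM), Rala (73.5 TPM), Rras (51.4 TPM), Ralb (34.4 TPM), Rap2b (30.6 TPM), Rit1 (21.1 TPM) and Mras (16.6 TPM) lay between. Of 24 regulators of Ras 21 had a row. The adaptors Grb2 (120 ± 3.27 TPM) and Shc1 (105 ± 1.58 TPM), the phosphatase Ptpn11 (102 ± 0.830 TPM), the GTPase-activating protein Rasa1 (89.9 ± 1.72 TPM) and the scaffold Shoc2 (71.3 ± 1.34 TPM) were highest. The exchange factor Sos1 stood at 46.7 TPM and neurofibromin Nf1, which switches Ras off, at 28.3 TPM.

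The kinases below Ras were all measured. Araf stood at 54.9 TPM, and Braf was lower at 12.0 ± 0.281 TPM. The MEK genes Map2k1 (173 ± 9.18 TPM) and Map2k2 (151 ± 5.00 TPM) and the ERK gene Mapk3 (125 ± 3.43 TPM) each exceeded Araf and Braf. The stress kinase p38 alpha, Mapk14, stood at 72.5 ± 2.62 TPM.

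Among 27 genes of ERK output and feedback, all had a row, 13 reached 100 TPM and 4 were under 10 TPM, with a median of 96.2 TPM against 27.8 TPM over all genes. Fosl1, the FRA1 subunit of AP-1, led at 999, 1107 and 1017 TPM and was the 110th gene of the table per length. Its relatives Fos and Fosb both averaged 13.8 TPM and overlapped, so Fosl1 was 75.8 ± 8.68 times Fos. Phlda1 stood at 481 ± 7.81 TPM, cyclin D1 Ccnd1 at 398 ± 1.65 TPM, Ier3 at 376 ± 34.4 TPM and Jun at 366 ± 11 TPM. The phosphatase Dusp4, which takes ERK out of action in the nucleus, stood at 228 TPM, the ERK phosphatase Dusp6 at 96.2 TPM and the feedback inhibitor Spry2 at 84.1 TPM. The Ets factors of the PEA3 group were Etv4 at 112 TPM, Etv5 at 77.3 TPM and Etv1 at 3.68 TPM, and the order of the first pair turned with the median transcript length. Epha4 was lowest at 0.345 ± 0.0592 TPM.

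**Figure D3:**
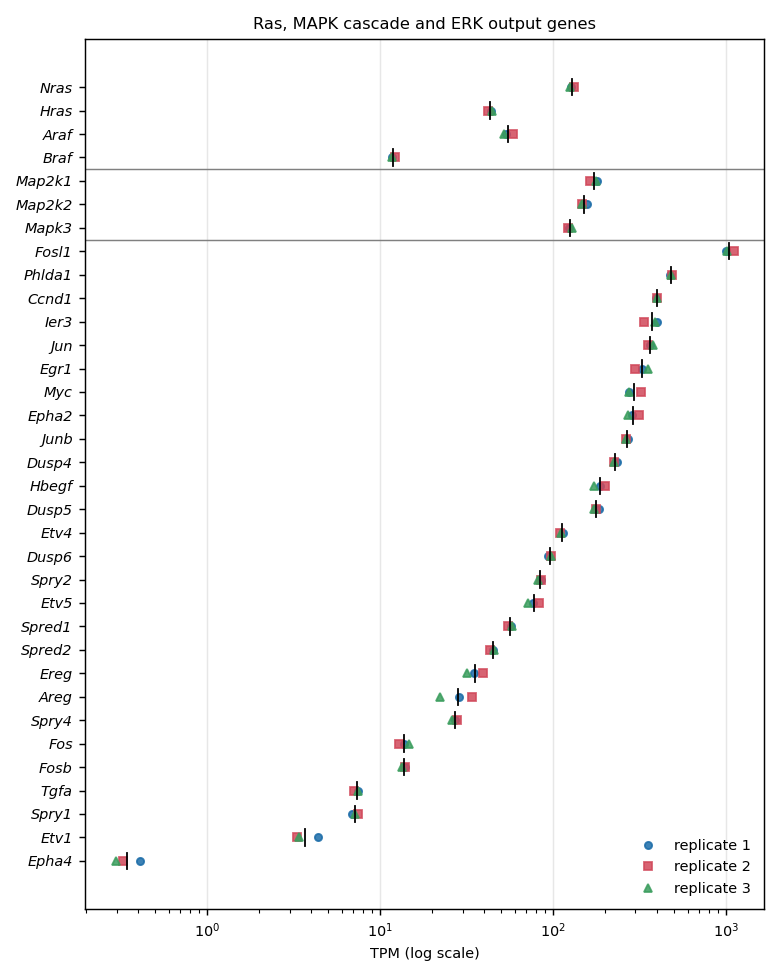
TPM (log axis) of members of the Ras, Raf, MEK and ERK families and of ERK output genes, with 1 point per plasmid control library and a short bar at the mean. Nras and Hras average 128 and 43.5 TPM, and Fosl1 stands at 1041 TPM against 13.8 TPM for Fos.

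The PI3K arm was led by Akt1 at 434, 396 and 449 TPM, 8.63 ± 0.157 times Akt2. Of 25 listed genes 24 had a row. The p85 subunit Pik3r2 stood at 131 ± 5.44 TPM and Rassf1 at 122 ± 6.85 TPM, the catalytic subunit Pik3ca at 35.5 TPM, and the Ral exchange factor Ralgds at 20.8 TPM. Plce1 was lowest at 0.291 ± 0.0463 TPM. Among oncogenes and survival genes Myc was highest at 277, 324 and 277 TPM, replicate 2 being the high one, and Mcl1 (256 ± 5.06 TPM), Spop (176 ± 3.14 TPM), Mdm2 (124 ± 5.18 TPM) and Bax (123 ± 4.58 TPM) followed. Mycl stood at 2.21 ± 0.101 TPM, and Mycn and Erg had no row.

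Tumour suppressor genes were not missing: all 23 listed had a row, and 22 reached 10 TPM. Cdkn2a, which encodes the p16INK4a and p19ARF proteins from one locus (chromosome 4, 89274471 to 89294653, mm10), stood at 538, 491 and 522 TPM and was the highest. The counts do not separate its isoforms. Trp53 stood at 81.1, 86.1 and 76.5 TPM and its target Cdkn1a at 82.1 ± 1.19 TPM. Smad4 (122 ± 0.850 TPM), Stk11 (99.6 ± 1.79 TPM) and Sesn2 (96.5 ± 3.18 TPM) lay between. Rb1 was lowest of the list at 6.20, 6.43 and 6.30 TPM. With the median transcript length it stood at 28.1 TPM and was not the lowest.

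The cell cycle list was measured in full, with 16 of 24 genes at 100 TPM or more and a median of 169 TPM. Cdk4 stood at 731, 694 and 737 TPM, and Cdk6, the other partner of D cyclins, at 10.4 ± 0.177 TPM, the lowest of the list. Pcna, the DNA polymerase clamp, stood at 608 ± 15.6 TPM, Top2a at 415 ± 6.62 TPM and the helicase subunit Mcm5 at 329 ± 1.32 TPM. Ccnd1 (398 TPM) stood above Ccnd2 (213 TPM) and Ccnd3 (91.4 TPM), but the order of Ccnd1 and Ccnd2 turned with the median transcript length.

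Receptor tyrosine kinases differed widely. Of 38 listed, 27 had a row and 4 reached 100 TPM. Axl, the receptor for Gas6, was highest at 516, 497 and 495 TPM and was 10.7 ± 0.297 times Met, or 34.4 times with the median transcript length. Epha2 stood at 291 ± 20.7 TPM, Fgfr1 at 140 ± 4.45 TPM, Ryk at 136 ± 5.33 TPM and the collagen receptor Ddr2 at 67.1 ± 7.04 TPM. Fgfr2 (0.853 TPM) and Fgfr3 (0.203 TPM) were far below Fgfr1, and Fgfr4 had no row. Of the ErbB receptors, Erbb2 stood at 13.2, 11.1 and 12.6 TPM and Egfr at 2.21, 2.96 and 2.11 TPM, while Erbb3 and Erbb4 had no row. With the median transcript length Egfr exceeded Erbb2, so only their low level, not their order, held. Flt4 was lowest at 0.200 ± 0.0634 TPM.

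Growth factors were mostly measured, with 34 of 37 in the table and 6 at 100 TPM or more, against 17.1% of all genes. Cyr61, a matrix-bound factor, stood at 682 ± 13.6 TPM, Vegfa at 253 ± 10.4 TPM, progranulin Grn at 242 ± 7.39 TPM and the EGF receptor ligand Hbegf at 186 ± 14.2 TPM. Hgf, the ligand of Met, stood at 0.594 TPM, Igf1 was lowest at 0.325 ± 0.0902 TPM, and Igf2 had no row. In the TGF-beta and BMP list all 21 genes had a row. The target gene Id3 stood at 222 ± 16.4 TPM, followed by Smad4, Id1 (96.4 ± 9.13 TPM) and Smad1 (65.5 ± 1.74 TPM). The receptors Tgfbr2 (28.6 TPM) and Tgfbr1 (16.1 TPM) were lower, and Acvr2b was lowest at 1.22 ± 0.221 TPM.

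The receptors of the IL-6 family were led by the shared chain. Il6st, which encodes gp130, stood at 54.7 ± 1.98 TPM, Osmr at 27.8 ± 1.45 TPM, Il11ra1 at 15.0 TPM, Lifr at 9.97 TPM, Il6ra at 5.16, 5.74 and 4.80 TPM, Il27ra at 2.34, 2.83 and 2.24 TPM, Cntfr at 0.904 TPM and Il12rb1 at 0.860 ± 0.0774 TPM. With another transcript length Il11ra1 and Lifr, or Lifr and Il6ra, changed places, while Il6st and Osmr stayed ahead. Jak1 (90.3 ± 1.76 TPM) stood above Jak2 (35.1 ± 0.166 TPM), Tyk2 (11.5 TPM) and Jak3 (3.44 TPM) with each length. Stat6 (75.4 ± 2.07 TPM) was the highest STAT and Stat3 the next at 37.9 ± 1.50 TPM, with Stat5b at 23.6, Stat2 at 17.1 and Stat5a at 4.25 TPM. The inhibitor Socs3 stood at 47.0 ± 4.62 TPM.

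Among other cytokine receptors 25 of 38 had a row. Tnfrsf12a, the receptor for TWEAK, was far ahead at 991, 1061 and 912 TPM. Il1rl1, the IL-33 receptor, stood at 173 ± 11.7 TPM, the TNF receptor Tnfrsf1a at 110 ± 4.64 TPM, Ltbr at 90.9 ± 0.964 TPM and the growth hormone receptor Ghr at 78.2 ± 4.73 TPM. The interferon receptor chains Ifngr1 (56.1 ± 1.30 TPM) and Ifnar1 (46.5 ± 1.68 TPM) were both present, and Il20rb was lowest at 0.934 ± 0.0287 TPM.

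The list of secreted cytokines and chemokines held some of the highest genes of the table but was low at its median. That median was 8.95 TPM, against 27.8 TPM over all genes. Of 50 listed, 34 had a row and 7 reached 100 TPM, while 19 were under 10 TPM. Over all genes with a length 17.1% reached 100 TPM and 72.0% reached 10 TPM. Mif, macrophage migration inhibitory factor, stood at 2380, 2154 and 2429 TPM and osteopontin Spp1 at 1580, 1505 and 1517 TPM. Csf1, the growth factor of macrophages, stood at 395 ± 25.3 TPM, the monocyte chemokine Ccl2 at 347 ± 26.9 TPM and the T cell chemokine Ccl5 at 224, 166 and 202 TPM, low in replicate 2. Il33 stood at 193 ± 11.6 TPM and Ccl7 at 116 ± 4.30 TPM. Il6, Il1b, Tnf and Ifnb1 had no row. Il27, a subunit of the cytokine delivered in the other groups, had 0, 1 and 1 reads here.

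**Figure D4:**
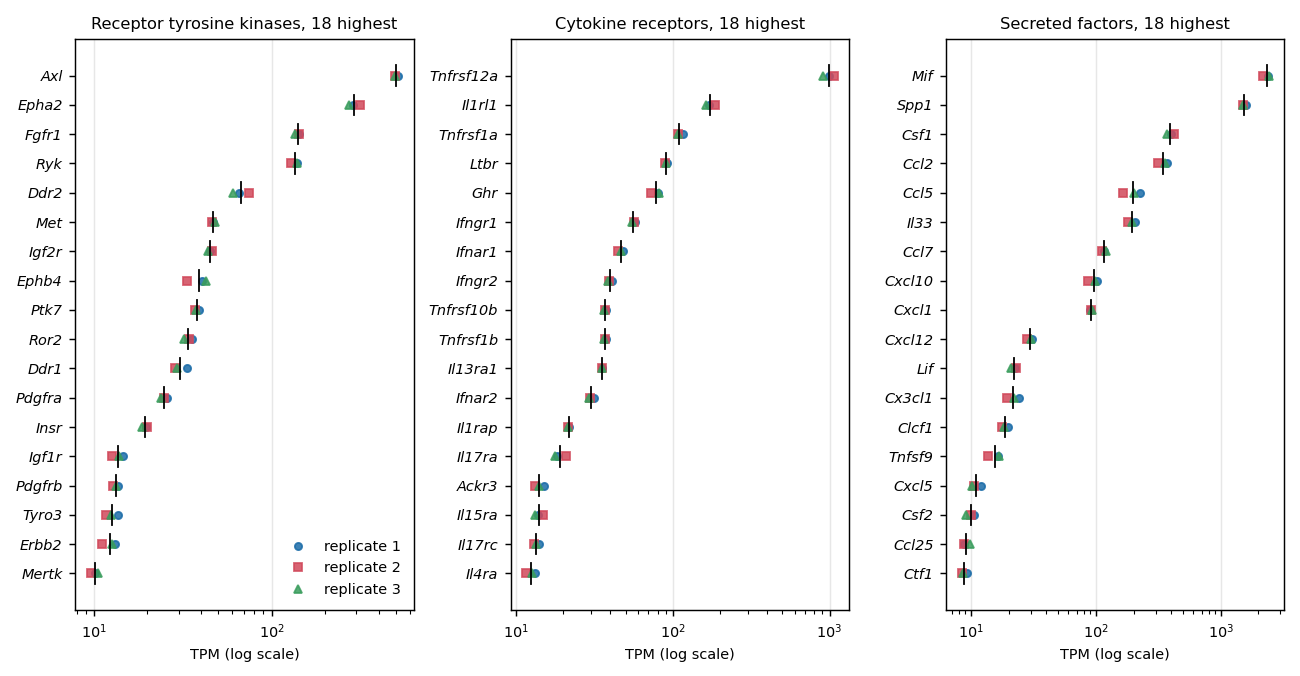
TPM (log axis) of the 18 highest members of 3 lists of receptors and secreted factors, with 1 point per plasmid control library and a short bar at the mean. Axl at 503 TPM and Tnfrsf12a at 988 TPM head the receptors, and Mif at 2321 TPM and Spp1 at 1534 TPM head the ligands.

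Of 35 collagens and collagen-processing genes 32 had a row and 24 of these reached 10 TPM, a share near the 72.0% of all genes. They were led by the enzymes and chaperones of collagen folding, P4hb at 837 ± 41.0 TPM and Serpinh1 at 561 ± 13.8 TPM, with P4ha1 at 171 ± 8.97 TPM. Of the chains, the basement membrane collagen Col4a1 (191, 184 and 186 TPM) was 1.34 ± 0.0107 times its partner Col4a2, and both were far above Col4a5 and Col4a6 with each transcript length. The fibrillar chain Col1a2 averaged 164 TPM, against 50.5 ± 1.53 TPM for Col1a1, with which it assembles. Col11a1 was lowest at 0.372 ± 0.0840 TPM. Among laminins and other matrix proteins 31 of 35 had a row, and 24 of these reached 10 TPM. Spp1, the proteoglycan biglycan Bgn (1487 ± 30.4 TPM), Sparc, Fbln2 (342 ± 9.02 TPM) and Mfge8 (205 ± 6.50 TPM) were highest. Fibronectin Fn1 stood at 165 ± 8.75 TPM, Lama3 was lowest at 0.273 ± 0.0562 TPM, and Lama1 had no row.

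The integrin chain Itgb1, shared by most matrix receptors, stood at 634, 632 and 639 TPM. Its partners Itga5 (161 ± 6.50 TPM), Itga6 (153 ± 4.83 TPM) and Itga3 (153 ± 3.21 TPM) overlapped over the libraries, and Itgav stood at 108 ± 2.57 TPM. Itga1 was lowest at 0.181 ± 0.0229 TPM. Of 38 matrix proteases and inhibitors 35 had a row. The lysosomal cathepsins Ctsl (523 ± 19.0 TPM), Ctsb (419 ± 14.2 TPM), Ctsz (406 ± 8.44 TPM) and Ctsd (359 ± 13.0 TPM) were among the highest. Of the Mmp genes, the membrane-bound Mmp14 stood at 129 TPM. Mmp3, Mmp11, Mmp13, Mmp10 and Mmp23 were lower, but each reached 10 TPM. Mmp2 stood at 0.800 TPM, Mmp9 at 0.714 TPM and Mmp24 at 0.319 ± 0.149 TPM. The inhibitors Timp2 (325 ± 2.13 TPM) and Timp1 (226 ± 5.26 TPM) exceeded Timp3 (51.9 TPM).

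The cytoskeleton list had 28 of 31 genes in the table, 22 of them at 100 TPM or more. Actb (3592 ± 162 TPM), the actin-severing Cfl1 (1508 ± 23.8 TPM), Actg1 (1282 ± 82.8 TPM), profilin Pfn1 (1123 ± 42.2 TPM) and Tmsb10 (944 ± 78.5 TPM) were highest, and Myl9 was lowest at 2.37 ± 0.553 TPM. Genes of the YAP and TEAD pathway, which responds to cell shape and stiffness, were all measured. The known targets Cyr61 and Ankrd1 (608 ± 15.0 TPM) were highest, ahead of Axl, with the coactivators Wwtr1 (209 ± 4.22 TPM) and Yap1 (126 ± 3.0 TPM) next and Tead3 lowest at 6.57 ± 1.30 TPM. With the median transcript length Yap1 exceeded Wwtr1. Of 34 Wnt, Notch and Hedgehog genes 31 had a row, but 18 were under 10 TPM. After Ctnnb1 came the Notch effector Rbpj (183 ± 8.0 TPM), the Hedgehog transducer Smo (107 ± 7.40 TPM), Axin1 (85.1 ± 2.75 TPM) and Notch2 (66.3 ± 3.62 TPM). The receptor genes Fzd2, Fzd7, Fzd6, Lrp5 and Lrp6 each reached 10 TPM. Fzd1, at 4.99 TPM, and Fzd5, Fzd8 and Fzd4 did not. The Wnt target Axin2 stood at 0.375 TPM and the Hedgehog target Gli1 at 0.656 TPM.

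Genes of antigen presentation differed widely in level. In the class I list 21 of 24 genes had a row. The folding factors Calr (1179 ± 5.01 TPM), Pdia3 (671 ± 12.5 TPM) and Canx (582 ± 8.81 TPM), which also serve other proteins, and the light chain B2m (930, 861 and 962 TPM) were high. The heavy chains H2-K1 (132, 119 and 117 TPM) and H2-D1 (46.8 TPM) were lower, and reads of H2 genes can be shared between near-identical copies. The peptide transporter genes Tap1 and Tap2 stood at 8.15 and 7.58 TPM. Psmb9, an immunoproteasome subunit, had 17, 2 and 17 reads and was lowest, at 0.465, 0.0647 and 0.586 TPM, with replicate 2 apart. Of 8 class II genes 3 had a row, H2-DMb1 at 5.77 ± 0.454 TPM, the invariant chain Cd74 at 2.52 ± 0.572 TPM and H2-DMa at 0.776 ± 0.222 TPM, and the regulator Ciita and the chains H2-Aa, H2-Ab1 and H2-Eb1 had none.

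Regulatory ligands were led by galectins. Lgals1, a sugar-binding protein that acts on T cells, stood at 5349, 5383 and 5760 TPM and was the sixth gene of the table per length. Lgals3 (664 ± 22.4 TPM) and Lgals9 (70.1 ± 2.22 TPM) followed, and their order held with each length. The poliovirus receptor Pvr, a ligand of TIGIT and DNAM-1, stood at 173 ± 11.3 TPM and the prostaglandin synthase Ptgs2 at 122 ± 4.67 TPM. Cd274, which encodes PD-L1, stood at 5.27 TPM, 9714th of 12061 genes, and Pdcd1lg2, Cd80, Cd86, Ido1 and Arg1 had no row.

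Sensors of nucleic acids were largely present, with 28 of 30 in the table and 23 at 10 TPM or more. Isg15, an interferon-induced ubiquitin-like protein, stood at 147, 130 and 131 TPM, the nuclease Samhd1 at 108 ± 1.95 TPM, the RNA editor Adar at 72.5 ± 6.53 TPM, Ifi204 at 64.4 ± 3.10 TPM and the adaptor Mavs at 58.1 ± 0.952 TPM. The DNA sensing pair Mb21d1 (cGAS) and Tmem173 (STING) stood at 40.7 and 54.1 TPM, the RNA sensor Ddx58 (RIG-I) at 34.3 TPM, and Tlr9 was lowest at 0.704 ± 0.268 TPM. All libraries had received plasmid and lipid, and an untransfected level to set these against is not part of the design.

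The spread between libraries was small for most genes. Among the 9014 genes at 10 CPM or more the median coefficient of variation (CV) was 3.75%, and 8560 of them (95.0%) were under 10%. Below 10 CPM the median CV was 11.9%. The common biological coefficient of variation was 4.18%. The chi-square of the counts per degree of freedom was 3.04 between replicates 1 and 3, 6.14 between 1 and 2 and 6.85 between 2 and 3, so each pair differed by more than counting error and replicate 2 lay farthest from the others.

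The 10 most variable genes at 10 CPM or more all had replicate 2 as their highest or lowest library. Hmgcs1, an enzyme of cholesterol synthesis, stood at 87.8, 60.1 and 98.7 CPM (CV 24.2%). Bnip3, a mitophagy receptor induced by low oxygen, stood at 78.6, 52.6 and 78.8 CPM, and Egln3, an oxygen-sensing prolyl hydroxylase, at 91.2, 65.0 and 95.1 CPM. Ccng2 (19.3, 12.5 and 16.8 CPM) and Nat6 (13.7, 9.53 and 13.6 CPM) were low in replicate 2 as well. Trim66 (13.4, 19.1 and 12.6 CPM), Fam171b (20.1, 28.4 and 20.3 CPM), Areg (12.6, 14.9 and 9.84 CPM), Extl1 (16.6, 20.3 and 13.6 CPM) and Syt12 (10.0, 13.4 and 9.55 CPM) were high there. Of the genes at 10 CPM or more 38.7% were lowest and 37.5% highest in replicate 2, and 19 of 23 glycolysis genes were lowest there. The cause was not tested.

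**Figure D5:**
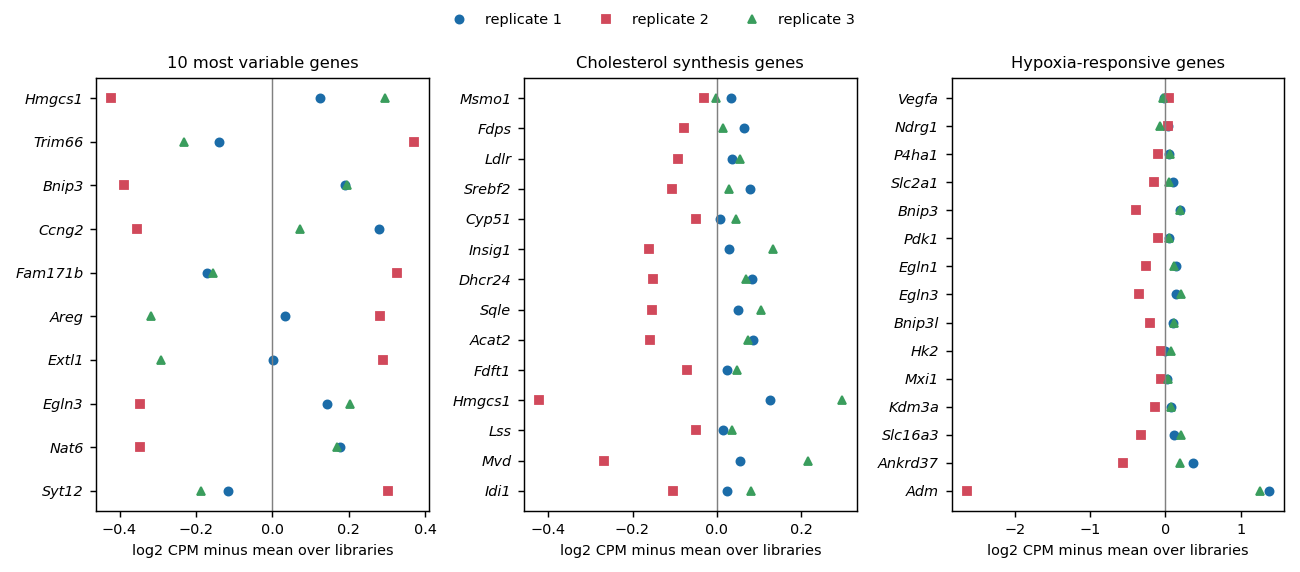
Log2 CPM of each plasmid control library minus the gene's mean over the 3 libraries, for the 10 most variable genes, the cholesterol synthesis genes and the hypoxia-responsive genes. Replicate 2 is the highest or lowest library for every gene in the first panel and the lowest for each cholesterol synthesis gene drawn.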

How the data were processed

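RNA was sequenced from 9 libraries of transfected TC2R cells, and the 3 labelled plasmid control are described. The values deposited by the authors are raw read counts per gene. The submitters' processing notes name FastQC, STAR, featureCounts, Subread 1.6.1, edgeR 3.22.5 and the mm10 build. Sources used here do not name the annotation, strand setting, RNA selection or handling of reads with several locations, so near-identical, overlapping and antisense genes may share counts. Every gene's third-highest CPM over the 9 libraries was at least 0.500556, so low genes appear to have been removed, as inferred from the values.

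CPM used library totals scaled by TMM factors from all 9 libraries (edgeR 4.0.16, R 4.3.3). TPM was computed from the counts and the longest GENCODE M21 transcript, with 11694 genes matched by symbol and 367 by an older symbol. Mean and SD cover 3 libraries. No test was made, since a single condition is described. 1 gene was taken as above another only where all its libraries lay above. The level calculations were tested on simulated data made with the same transcript lengths, so that test cannot bear on the choice of length.

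The text names the 30 genes highest by CPM (predicted genes passed over), and in each of 43 lists the first gene, the 5 highest per length and the lowest. It also names all measured members of small families, and the 10 genes of highest CV at 10 CPM or more. Members, lists and rules were chosen with earlier results of these data known. Other genes named in a list, the 5 lists used for hypoxia, cholesterol synthesis, interferon-stimulated genes, oncofetal genes and ligand pairs, some family orders and the motif windows shown were chosen after their values were seen. Alternatives were other scaling factors, omission of Rn45s, a low-level filter (at least 1 CPM in all 3 libraries), other transcript lengths and omission of each library. Results for some genes that the rule names are not reported here.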

Additional observations from a re-analysis of the deposited data

How the results depend on the processing

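The number of genes at 100 CPM or more was 2577 and lay between 2572 and 2609 with DESeq2 1.42.0 size factors, TMM factors from the 3 libraries alone, unscaled totals, a filter of 1 CPM that removed 934 genes, or Rn45s left out, and between 2568 and 2580 without each replicate in turn. At least 97 of the 100 highest genes were shared with the main ranking under each of these. The number at 100 TPM or more was 2066, and 2190 with the median and 2039 with the principal transcript length, the last chosen after seeing the data. Without Rn45s the share of counts in the 100 highest genes was 15.97% in place of 17.0%, a move larger than the SD between libraries, since the highest row left the sum. Without each replicate in turn that share ran from 16.9% to 17.2%. Transcript length moved single levels most: the TPM of 7705 genes moved over 1.5 times with the median length and of 900 genes with the principal length. Of 35 genes with a length that were followed, chosen after their values were seen, the TPM of all 35 moved by more than the SD with the median length and of 26 with the principal length. Of their CPM values 1 moved by more than the SD when Rn45s was left out. No paired analysis was possible because a single group is described and no test was made.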

Other observations

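Lists added after the values were seen showed further groups. Of 7 oncofetal genes, which are active in embryos and reappear in tumours, 6 had a row. The chromatin protein Hmga2 stood at 587, 652 and 623 TPM, the RNA-binding Igf2bp2 at 152 ± 1.76 TPM, Hmga1 at 83.8 ± 8.10 TPM, Igf2bp1 at 29.6 TPM and Igf2bp3 at 21.8 TPM, and Lin28b at 0.346 ± 0.0526 TPM. The order of the Igf2bp genes held with each transcript length. Set side by side, some ligands and their receptors were both high: Il33 (193 TPM) with Il1rl1 (173 TPM), and Spp1 (1534 TPM) with Cd44 (340 TPM). Il1rap, the partner chain of Il1rl1, stood at 21.6 TPM, below the median of 27.8 TPM over all genes. Others were uneven. Csf1 stood at 395 TPM and its receptor Csf1r at 0.843 TPM, Vegfa at 253 TPM and Kdr at 2.30 TPM, Hbegf at 186 TPM and Egfr at 2.43 TPM, and Fgf10 at 23.4 TPM and Fgfr2 at 0.853 TPM. Tnfrsf12a stood at 988 TPM and its ligand Tnfsf12 at 16.9 TPM. Axl stood at 503 TPM, but its ligand Gas6 had no row, so this pair cannot be compared.

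Genes of 3 further added lists were often lowest in replicate 2. So were Hmgcs1 of the cholesterol list and Bnip3 and Egln3 of the hypoxia list, which are among the most variable genes above. The lists were chosen after such values were seen, so the counts are a description. Cholesterol synthesis genes were lowest there in 15 of 15. Hypoxia-responsive genes were lowest there in 13 of 15, with the vasodilator peptide gene Adm at 57, 3 and 41 reads. Type I interferon-stimulated genes were lowest there in 11 of 15, with Ifit1 at 57.3, 42.5 and 58.8 TPM, Ifit genes being similar in sequence. Of the same 15 genes, 12 were highest in replicate 1. The list summed to 867, 736 and 770 TPM in replicates 1, 2 and 3, so in the sum, unlike Ifit1, replicate 3 lay nearer replicate 2. Over all genes at 10 CPM or more 38.7% were lowest in replicate 2. The cause was not tested.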
